A study of Bos taurus with 12 samples.

Results

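In the small RNA counts of cow blood, 719 of 1981 distinct names began with PC-, the mark taken here for predicted miRNA candidates, that is, small RNAs proposed from reads and a possible hairpin and not matched to a catalogued miRNA. The candidates described here are the 131 of these names whose mean raw count over 12 libraries was at least 5. Names that stood on several rows with the same values were counted once. The members were therefore chosen by their own mean level, and their abundance and detection are given below as description with no test. The group difference was not part of that choice. The known cattle miRNAs used beside them are the 519 of 754 cattle names that reach the same mean, and 304 further names from other species also reach it.

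The blood came from 12 Chinese Holstein dairy cows, 6 classed as heat stressed and 6 as heat resistant by principal components of 2 traits, rectal temperature and how far milk yield dropped. The groups are thus classes of cows set by their response and not treatments. The sources used here name no agent or genotype for either group and give no ages. Each library is taken as 1 cow, which the labels do not state, so p-values measure the spread between these libraries. The blood fraction that was extracted is not named in the labels, and in such a bulk sample fewer cells of a type and less RNA per cell cannot be told apart.

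A miRNA is a short RNA that guides Argonaute proteins to messenger RNAs, chiefly through the bases near its 5′ end called the seed. It is cut by Drosha and Dicer from a hairpin precursor, and either arm of the hairpin, the 5p or the 3p arm, can be loaded. Blood miRNAs come mainly from red cells, platelets and white cells. A candidate from prediction alone has no known target or function, so each one is described here by its name, its arm and its level only. The name gives the arm, then a number and a suffix, which the sources used here do not explain. The suffix was below the summed raw count in 107 of the 131 candidates, so it is not that sum. It rose with that sum, with a rank correlation (Spearman) of 0.885 over the candidates. The sequences of the candidates were not analysed here, and the values cannot show whether a row is a product of a hairpin.

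The libraries held between 6405040 and 9728457 assigned counts in heat stressed cows and between 3992952 and 9813801 in heat resistant cows, each name counted once. The red cell list (4 of its 5 miRNAs found, each above 0 in every library) took 2.98% to 8.29% of the counts of heat stressed cows and 2.04% to 9.96% of those of heat resistant cows. The 9.96% belonged to heat resistant library 4, which was also the deepest, and the other 5 heat resistant libraries lay between 2.04% and 3.17%. The liver list was high in heat resistant libraries 1 and 2, at 18.8% and 21.7% of counts, and lay at 5.17% to 9.20% in the other 10 libraries. The lymphocyte list summed to 2.38% to 4.38% in heat stressed libraries and to 1.76% to 2.47% in heat resistant libraries. The part of these differences in the results below was not tested, apart from the values given for the red cell ratio and for leaving out library 4.

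The 131 candidates made up a very small share of blood miRNA. They held 0.143 ± 0.00951% of counts in the heat stressed libraries and 0.134 ± 0.0143% in the heat resistant libraries (SD, n = 6 each), while the cattle names held 98.1% of all counts. The share ran from 0.133% (median 0.142%) to 0.155% in heat stressed cows and from 0.120% (median 0.132%) to 0.160% in heat resistant cows. The groups overlapped widely, and the highest library was heat resistant library 6. Without PC-3p-583_18938, the most abundant candidate, the share was 0.107 ± 0.0107% in the heat stressed and 0.108 ± 0.0157% in the heat resistant libraries (SD, n = 6 each). Without the 5 most abundant it was 0.0534 ± 0.00516% in the heat stressed and 0.0494 ± 0.00416% in the heat resistant libraries (SD, n = 6 each). The order of the group means thus changed with which abundant candidates were summed. The sum without the most abundant candidate was added after the data were seen.

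**Figure D1:**
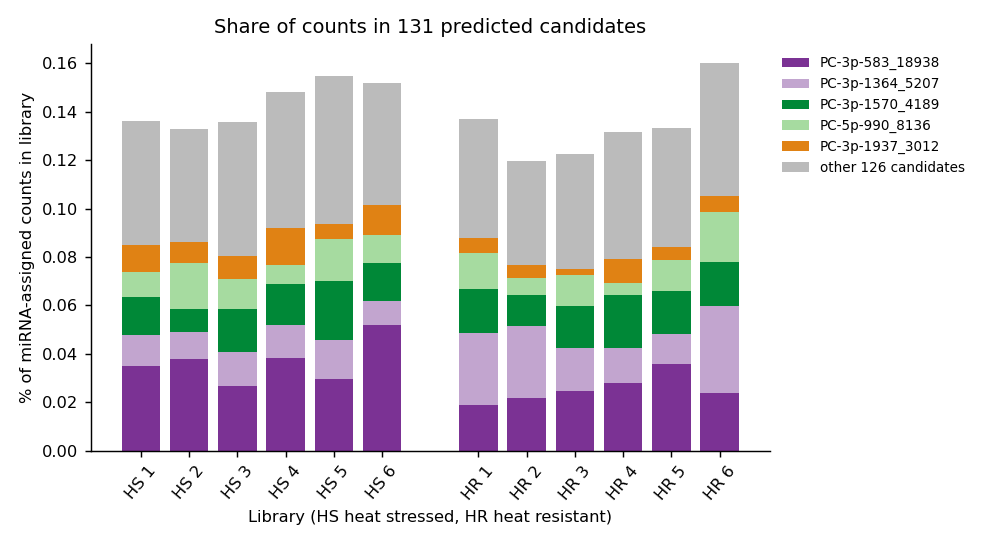
Share of each library's assigned counts (vertical axis, in %) held by the 131 predicted candidates, with heat stressed libraries (HS) on the left and heat resistant libraries (HR) on the right; colours mark the 5 most abundant candidates and grey the other 126. The stacks reach 0.133% to 0.155% in the heat stressed and 0.120% to 0.160% in heat resistant cows, and the 5 coloured candidates take more than the grey part in every library.

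The level was concentrated in few candidates. The most abundant held 22.4% of the summed mean CPM of all 131, the first 3 held 47.9%, the first 5 held 62.9% and the first 20 held 81.2% (CPM, the usual scaled count, here relative to the TMM-adjusted library total). These first 5 took 62.7 ± 2.81% of the candidates' counts in the heat stressed and 63.1 ± 2.09% in the heat resistant libraries (SD, n = 6 each). The median candidate had a mean of 2.06 CPM, between 0.618 CPM and 311.5 CPM for the lowest and the highest. The median cattle name had 17.9 CPM and the highest 98867.5 CPM. Levels of different small RNAs are set side by side only roughly, since adapter ligation favours some RNA ends over others.

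PC-3p-583_18938, a 3p candidate, was the most abundant and ranked 133 among all distinct names by mean CPM. It ran from 256 CPM (median 372) to 530 CPM in heat stressed cows and from 204 CPM (median 235) to 340 CPM in heat resistant cows. PC-3p-1364_5207 ranked 161 and ran from 103 CPM (median 139) to 159 CPM in heat stressed cows and from 117 CPM (median 234) to 346 CPM in heat resistant cows. The groups of both candidates overlapped. Heat resistant libraries 1, 2 and 6 stood highest for PC-3p-1364_5207, at 322, 299.7 and 346 CPM. Libraries 1 and 2 had the highest liver list. Library 6, the highest for this candidate, had the lowest liver list of all libraries, at 5.17%. The part of the liver list in these values was not tested.

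Of the next candidates in abundance, PC-3p-1570_4189 and PC-5p-990_8136 lay closer between the groups, while PC-3p-1937_3012 did not. PC-3p-1570_4189, ranked 165, had a median of 168 CPM in heat stressed libraries (from 94.9 to 238 CPM) and of 169 CPM in heat resistant libraries (from 130.4 to 222 CPM). PC-5p-990_8136, the most abundant 5p candidate, had a median of 118 CPM in heat stressed libraries (from 80.2 to 184 CPM) and of 121 CPM in heat resistant libraries (from 51.7 to 200.3 CPM). PC-3p-1937_3012 had a median of 107 CPM in heat stressed libraries (from 64.3 to 155 CPM) and of 57.9 CPM in heat resistant libraries (from 23.9 to 96.8 CPM). All of these ranges overlapped. The log2 fold change of heat stressed over heat resistant cows was -0.07 ± 0.19 for PC-3p-1570_4189 and 0.12 ± 0.29 for PC-5p-990_8136 (SE), both smaller than their errors (edgeR adjusted p = 0.894 and 0.876). For PC-5p-990_8136 it was 0.64 ± 0.26 (SE, edgeR adjusted p = 0.555) in a fit with a covariate that follows red cell content, miR-451 over miR-23a as a log2 ratio. With that covariate some other named candidates had differences over 1.5 times closer to 0 than without it. Among them were 0.44 for PC-3p-1937_3012, 0.36 for PC-5p-2509_2029, -0.37 for PC-3p-4435_862, 0.085 for PC-3p-9897_366, -0.10 for PC-3p-4861_759 and -1.24 for PC-5p-2934_1585. Others were farther from 0 with it, at -1.37 beside -1.02 for PC-5p-17636_229 and -0.20 beside -0.07 for PC-3p-1570_4189. Still others changed less, at 0.58 beside 0.60 for PC-3p-3602_1163, 0.48 beside 0.55 for PC-3p-583_18938 and -0.73 beside -0.83 for PC-3p-1364_5207. Only the 5 most abundant candidates had a mean raw count of 500 or more.

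Below them the levels dropped quickly. PC-5p-2509_2029 averaged 62.0 ± 11.4 CPM in the heat stressed and 40.6 ± 12.0 CPM in heat resistant libraries, and PC-5p-2360_2239 averaged 35.6 ± 4.05 and 22.7 ± 4.53 CPM in the heat stressed and heat resistant libraries (SD, n = 6 each). The 12 most abundant ended with PC-3p-9897_366, PC-3p-4861_759, PC-3p-4435_862 and PC-3p-3759_1096, which lay between 11.8 and 19.4 CPM in every group mean. None of these 4 passed, and the differences of PC-3p-9897_366 and PC-3p-4861_759 were 0.40 ± 0.23 and -0.31 ± 0.20 on the log2 scale (SE, edgeR adjusted p = 0.328 and 0.393). At the threshold itself, PC-3p-64169_37 and PC-3p-50465_60 had a mean raw count of 5 and PC-3p-86467_18 of 5.08, while PC-3p-74709_26, at 4.67, was the first name left out. The next left out were PC-3p-35499_105 and PC-5p-57208_47, at 4.62 and 4.5. Members and non-members at this line differ by less than 1 count per library.

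**Figure D2:**
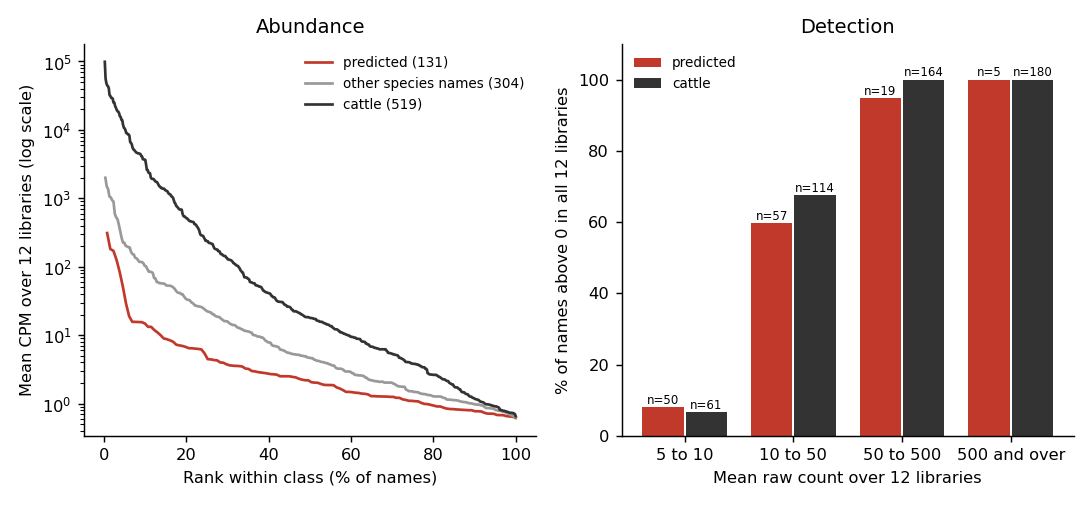
Left, mean CPM over 12 libraries (log scale) against rank within each class, in % of its names, for predicted candidates, names of other species and cattle names; right, the percentage of names above 0 in all 12 libraries, by bands of mean raw count, for predicted candidates and cattle names with the number of names above each bar. The predicted curve lies below both others over most of its length, with medians of 2.06 CPM for predicted and 17.9 CPM for cattle names, while within a band of mean count the shares detected in all libraries are 59.6% against 67.5% or closer.

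Fewer of the candidates than of the cattle names were found in every library. Of the 131 candidates, 61 (46.6%) had counts in all 12 libraries, 60 in 6 to 11 and 10 in fewer than 6. Of the 519 cattle names, 425 (81.9%) had counts in all 12 and 7 in fewer than 6. Among rows of whole numbers, 99.6% of the values above 0 under PC- names reached 5, and a 0 can therefore hide a few reads. Scaled by the library total without the TMM adjustment, a value of 5 counts corresponds to 0.509 to 1.25 CPM, depending on the library. These limits are therefore not exact on the adjusted scale used for the other CPM values.

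At a like mean count the shares of names found in all 12 libraries lay closer together. With a mean raw count of 5 to 10, 4 of 50 candidates (8.0%) and 4 of 61 cattle names (6.56%) were above 0 in all libraries. With a mean of 10 to 50 these were 34 of 57 candidates (59.6%) and 77 of 114 cattle names (67.5%). With a mean of 50 to 500 they were 18 of 19 candidates and 164 of 164 cattle names. The median coefficient of variation within groups was 92.6% for candidates and 81.6% for cattle names at a mean of 5 to 10. It was 52.7% for candidates and 47.9% for cattle names at a mean of 10 to 50, and 28.6% and 27.7% for candidates and cattle names at 50 to 500. Among the most abundant names it was 34.7% over the 5 candidates and 21.1% over the 180 cattle names. Over all bands together it was 62.7% for candidates and 31.0% for cattle names, which have higher means.

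More candidates had counts in a heat stressed than in a heat resistant library. The number was 115 ± 5.82 in the heat stressed and 102 ± 10.2 in the heat resistant libraries (SD, n = 6 each). It ran from 110 (median 114) to 126 in heat stressed cows and from 83 (median 104) to 112 in heat resistant cows, so the groups overlapped. The lowest, 83, was heat resistant library 3, which was also the shallowest at 3992952 counts, and the other 5 heat resistant libraries had 100 to 112. The cattle names showed the same order with a narrower range, 492 to 507 of 519 in the heat stressed and 458 to 507 in heat resistant libraries. The part of depth in these numbers was not tested.

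Both arms were represented. The names gave 59 candidates as 5p and 72 as 3p, so 45.0% were 5p. The 3p candidates held the larger part of the counts, 71.1 ± 3.17% in the heat stressed and 70.1 ± 3.48% in the heat resistant libraries (SD, n = 6 each), and 4 of the 5 most abundant were 3p. Counts in all 12 libraries were found for 27 of the 59 5p and 34 of the 72 3p candidates, and counts in fewer than 6 libraries for 2 of the 5p and 8 of the 3p candidates. Only 1 number, 16131, occurred with both arms among the members. PC-5p-16131_248 and PC-3p-16131_248 had identical values in all 12 libraries (mean raw count 18.5), so their levels cannot be told apart and they give no ratio of arms. Of the 131 candidates, 35 had values that were not whole numbers, and all of those values became whole on doubling.

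The comparison of heat stressed with heat resistant cows asks which small RNAs differ between cows that respond strongly and weakly to heat. No candidate passed the test (edgeR quasi-likelihood F test, Benjamini-Hochberg adjusted p under 0.05): 0 of the 80 candidates that passed the filter on low counts were called, and over all 756 features the share called was 0%. The other 51 candidates did not pass the filter. At an unadjusted p under 0.05, 13 of the 80 were higher (16.25%, beside 9.13% of all features) and 6 were lower (7.5%, beside 10.2% of all features). Among the 445 cattle names tested 43 were higher and 46 lower. With limma-voom 0 candidates were called, as were 0% of all features, and with DESeq2 5 candidates (6.25%) were called, beside 7.14% of all features.

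The direction of the fitted differences leaned to the heat stressed side. Of the 80 candidates 50 had a positive and 30 a negative log2 fold change (heat stressed over heat resistant), with a median of 0.17, while over all 756 features there were 376 positive and 380 negative with a median of -0.0019. With DESeq2's size factors in the same fit, 49 candidates were positive and 31 negative. The filter keeps features that reach its minimum in as few libraries as 1 group holds, so the 80 are a selected part. In a fit of all 954 names with a mean raw count of at least 5, which keeps all 131 candidates, 84 had a positive and 47 a negative log2 fold change, with a median of 0.22 beside -0.013 over all names. There 15 candidates were higher and 7 lower at an unadjusted p under 0.05, or 11.5% and 5.34%, beside 7.55% higher and 9.96% lower of all names. In that fit 0 candidates passed the adjusted threshold, beside 1.68% of all names. The lean was not tested against names of like level. With a mean raw count of 5 to 10, 33 candidates were positive and 17 negative (median 0.31), and cattle names of that level were 38 positive and 23 negative (median 0.36). With a mean of 10 to 50, 36 candidates were positive and 21 negative (median 0.22), and 47 cattle names were positive and 67 negative (median -0.13). Both arms were mostly positive. Of the 80 in the filtered fit, 24 were positive and 14 negative among 5p candidates (median 0.15) and 26 positive and 16 negative among 3p candidates (median 0.22). At an unadjusted p under 0.05 in that fit, 5 of the 5p were higher and 4 lower, and 8 of the 3p were higher and 2 lower. In the fit of all 131, 36 were positive and 23 negative among 5p candidates (median 0.11) and 48 positive and 24 negative among 3p candidates (median 0.28).

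**Figure D3:**
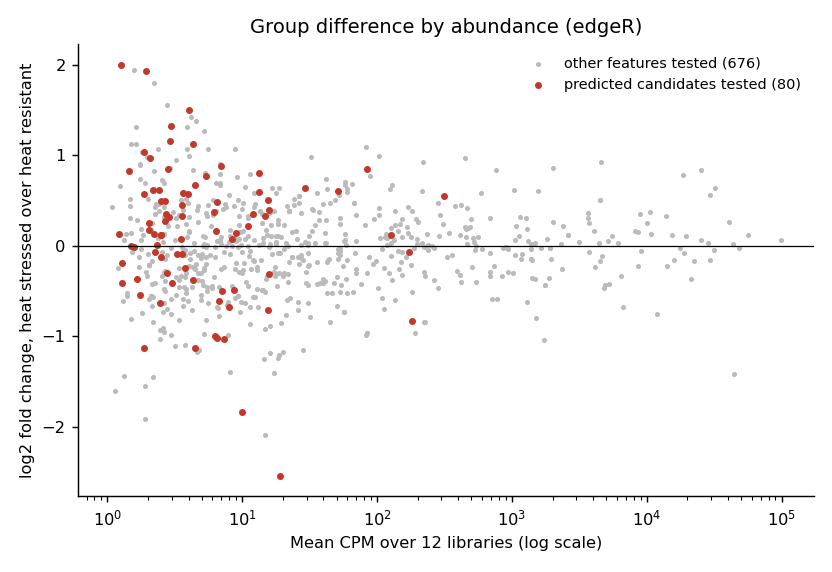
Log2 fold change of heat stressed over heat resistant cows (edgeR) against mean CPM over 12 libraries (log scale), 1 point per feature, for the 80 predicted candidates tested and the other 676 features. Candidates lie on both sides of 0, 50 above and 30 below, and none passed the adjusted threshold; the lowest point, at -2.54, is PC-5p-2934_1585.

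PC-5p-2360_2239, a 5p candidate, had the smallest adjusted p. It ran from 28.5 CPM (median 35.7) to 40.9 CPM in heat stressed cows and from 16.8 CPM (median 21.8) to 30.0 CPM in heat resistant cows. A single library of each group lay in the range of overlap, heat stressed library 2 at 28.5 CPM and heat resistant library 4 at 30.0 CPM. The log2 fold change was 0.64 ± 0.16 (SE), and the difference did not pass the test (edgeR adjusted p = 0.0692). Its adjusted p was 0.0364 without heat stressed library 2, 0.0083 without heat resistant library 4, 0.0488 with repeat rows summed and 0.0079 with DESeq2, each under 0.05, and its range over all alternatives was 0.0079 to 0.503. The highest of these came with the red cell ratio as a covariate.

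Other abundant candidates had higher means in heat stressed cows without passing the test. PC-3p-583_18938 averaged 370 ± 95.0 CPM in the heat stressed and 253 ± 50.9 CPM in the heat resistant libraries (SD, n = 6 each), a log2 fold change of 0.55 ± 0.18 (SE, edgeR adjusted p = 0.123). Without heat stressed library 6, its highest library, the log2 fold change was 0.36 (edgeR adjusted p = 0.290). PC-3p-1937_3012 averaged 107 ± 33.3 CPM in the heat stressed and 59.6 ± 23.8 CPM in the heat resistant libraries (SD, n = 6 each), a log2 fold change of 0.84 ± 0.28 (SE, edgeR adjusted p = 0.122). The lowest library of this candidate was heat resistant library 3 at 23.9 CPM. PC-5p-2509_2029, with the means given above, had a log2 fold change of 0.61 ± 0.20 (SE, edgeR adjusted p = 0.123).

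PC-3p-3606_1161, PC-3p-3602_1163 and PC-3p-3759_1096, all 3p and of lower level, also had higher means in heat stressed cows. PC-3p-3606_1161 ran from 12.4 CPM (median 16.5) to 24.4 CPM in heat stressed cows and from 4.95 CPM (median 9.71) to 14.1 CPM in heat resistant cows. PC-3p-3602_1163 ran from 12.7 CPM (median 16.0) to 19.9 CPM in heat stressed cows and from 7.35 CPM (median 10.8) to 13.2 CPM in heat resistant cows. Both pairs of ranges met at a few libraries near 13 CPM. The log2 fold change of PC-3p-3606_1161 was 0.80 ± 0.25 and that of PC-3p-3602_1163 was 0.60 ± 0.19 (SE), and neither passed (edgeR adjusted p = 0.0987 and 0.0992). PC-3p-3759_1096 averaged 18.2 ± 4.82 CPM in the heat stressed and 12.8 ± 1.27 CPM in the heat resistant libraries (SD, n = 6 each). Heat stressed libraries 2 and 3 of this candidate, at 12.1 and 11.9 CPM, lay among the heat resistant ones, and it did not pass (edgeR adjusted p = 0.178).

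On the lower side, PC-3p-1364_5207 averaged 131 ± 22.3 CPM in the heat stressed and 233 ± 100.3 CPM in the heat resistant libraries (SD, n = 6 each). The log2 fold change was -0.83 ± 0.26 (SE, edgeR adjusted p = 0.0987). The spread lay on the heat resistant side, where libraries 4 and 5, at 146 and 117 CPM, were within the heat stressed range. PC-3p-4435_862 averaged 11.8 ± 2.21 CPM in the heat stressed and 19.4 ± 6.46 CPM in the heat resistant libraries (SD, n = 6 each), with a log2 fold change of -0.71 ± 0.24 (SE, edgeR adjusted p = 0.121).

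PC-5p-36422_102 ran from 0.748 CPM (median 4.36) to 8.02 CPM in heat stressed cows and from 6.06 CPM (median 13.9) to 28.1 CPM in heat resistant cows. Heat resistant libraries 1 and 6 stood highest, at 24.7 and 28.1 CPM, and the ranges overlapped between 6.06 and 8.02 CPM. The log2 fold change was -1.84 ± 0.53 (SE), which did not pass (edgeR adjusted p = 0.0961). PC-5p-14057_278 and PC-5p-17636_229, both 5p, had medians of 4.0 and 3.59 CPM in heat stressed libraries and of 9.12 and 6.08 CPM in heat resistant libraries. For PC-5p-17636_229 the highest values were in heat resistant libraries 4 and 6, at 14.8 and 16.5 CPM. Their log2 fold changes were -0.99 ± 0.39 and -1.02 ± 0.42 (SE, edgeR adjusted p = 0.175 and 0.189).

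PC-5p-2934_1585 had the largest difference of the 80 candidates as fitted by edgeR, and 2 libraries stood far above the rest. It ran from 3.57 CPM (median 5.88) to 6.87 CPM in heat stressed cows and from 4.34 CPM (median 6.47) to 95.7 CPM in heat resistant cows. Heat resistant libraries 1 and 3 had 95.7 and 76.1 CPM (677.5 and 318 raw counts), while the other 4 heat resistant libraries, at 4.34 to 7.12 CPM, lay in the range of the heat stressed ones. The log2 fold change was -2.54 ± 0.77 (SE, edgeR adjusted p = 0.0973). It was -1.81 without heat resistant library 1 and -2.08 without library 3, with edgeR adjusted p-values of 0.235 and 0.163. It was -1.24 both with limma-voom and with the red cell covariate, so its size depends on the model. Under limma-voom PC-5p-36422_102 and PC-5p-38041_95 had larger differences, at -1.99 and 2.38.

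**Figure D4:**
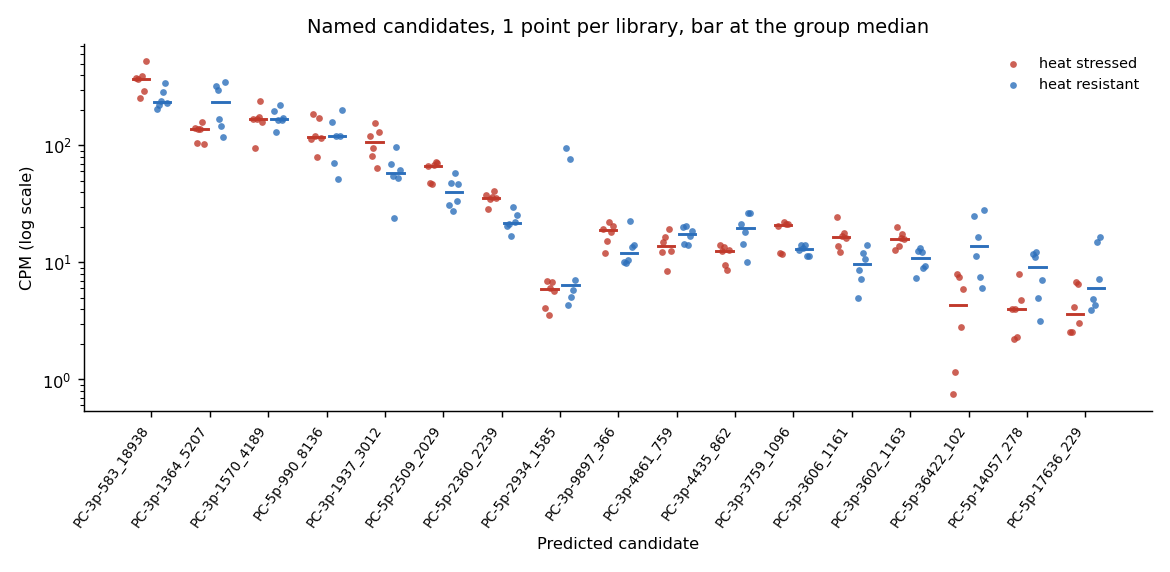
CPM (log scale) of 17 named candidates in each library, 1 point per library, with heat stressed cows left of heat resistant cows for each candidate and a bar at the group median. Points of the groups overlap for every candidate shown, closely for PC-5p-2360_2239 at 28.5 to 30.0 CPM, and heat resistant libraries 1 and 3 stand above all others for PC-5p-2934_1585.

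The number of calls changed most when heat resistant library 4 was left out. Without heat resistant library 4, 6 of 86 candidates tested were higher (beside 8.37% of all features) and 4 lower (beside 4.12% of all features) at an edgeR adjusted p under 0.05. The 6 were PC-3p-1937_3012, PC-3p-9153_390, PC-5p-2360_2239, PC-3p-9897_366, PC-5p-2509_2029 and PC-3p-3606_1161, and the 4 were PC-5p-2934_1585, PC-3p-1364_5207, PC-5p-36422_102 and PC-3p-4435_862. PC-3p-9153_390, which ran from 2.91 to 13.2 CPM in the heat stressed and from 2.73 to 8.39 CPM in heat resistant libraries, is named only because of this call. The same ratio of miR-451 to miR-23a, on the log2 scale, was between -0.48 and 1.45 in the heat stressed libraries. It was 1.92 in heat resistant library 4 and between -1.78 and -0.95 in the other 5 heat resistant libraries. Library 4 was the highest heat resistant library in 35 of the 131 candidates (26.7%) and in 132 of the 519 cattle names (25.4%). With that ratio as a covariate over all 12 libraries, 0 candidates were called (edgeR, beside 0% of all features), and at an unadjusted p under 0.05 there were 7 higher (beside 4.5% of all features) and 4 lower (beside 3.57% of all features).

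Other settings also changed the count. Without heat stressed library 2, 1 of 84 candidates was higher, PC-5p-2360_2239, beside 2.84% of all features. With repeat rows summed in place of counted once, the same candidate was the 1 of 85 called. It was again higher, beside 1.16% of all features called as higher. DESeq2 called PC-3p-1937_3012 and PC-5p-2360_2239 as higher, beside 3.97% of all features, and PC-5p-2934_1585, PC-3p-1364_5207 and PC-5p-36422_102 as lower, beside 3.17% of all features. In these settings and without heat resistant library 4, the shares of candidates called as higher or as lower were each within 2 percentage points of the share of all features called in that direction. Over both directions the gap could be wider, as 29 of 775 features and 1 of 84 candidates were called without heat stressed library 2.

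No candidate separated the groups without overlap. Of the 80 tested, 0 had every heat stressed library above every heat resistant one, beside 0.529% of all features, and 0 had every one below, beside 0.397%. No candidate had counts in all 6 libraries of one group and in none of the other. Among the largest positive differences were 2 scarce candidates, named after their values were seen. PC-3p-34243_110 ran from 0.699 CPM (median 1.97) to 3.39 CPM in heat stressed cows and was at 0 in 4 of 6 heat resistant libraries, with 1.55 CPM at most. PC-5p-38041_95 ran from 0.932 CPM (median 2.47) to 7.18 CPM in heat stressed cows and from 0 CPM (median 0.912) to 1.74 CPM in heat resistant cows. Neither passed in the filtered fit (edgeR adjusted p = 0.224 and 0.188), and values near 1 CPM stand for a few counts. That filter can keep a feature through the libraries of 1 group. In the fit of names with a mean raw count of at least 5, PC-5p-38041_95 had an edgeR adjusted p of 0.244. There PC-3p-34243_110 was no longer among the candidates higher at an unadjusted p under 0.05.

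A group of 10 candidates had counts in 5 or fewer libraries, and they were singled out after their values were seen. PC-3p-29875_132 had 82.5, 75.5 and 111 raw counts in heat stressed libraries 3, 4 and 6 and 16 in heat resistant library 2, and was at 0 in the other 8. PC-3p-32858_117 had counts in the same 4 libraries, 36, 49.5 and 36.5 in heat stressed libraries 3, 4 and 6 and 8 in heat resistant library 2. These candidates share an on and off pattern over the 12 libraries, though whether they share sequence was not analysed here. PC-3p-37581_97 was at 0 in all 6 heat stressed libraries and had 27, 36 and 39 raw counts in heat resistant libraries 2, 4 and 5. In the fit of names with a mean of at least 5 its unadjusted p was 0.0049 and its adjusted p 0.0951 (edgeR), and its fitted fold change depends on the prior count and is not given.

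The other candidates of this kind had lower counts and overlapped between the groups. PC-3p-55713_50 had 44 and 31 raw counts in heat stressed libraries 1 and 3 and 16 in heat resistant library 6. PC-5p-61786_40 had 8 in heat stressed library 3 and 8 and 59 in heat resistant libraries 2 and 4, so that 74.9% of its summed CPM came from 1 cow. The remaining 5 (PC-5p-60672_41, PC-3p-57664_46, PC-3p-78207_23, PC-3p-86467_18 and PC-3p-50465_60) had mean raw counts from 5 to 6.08 and no library above 36. Of these, PC-3p-86467_18 had counts in 4 heat stressed and 1 heat resistant libraries and PC-3p-78207_23 in 3 heat stressed and 1 heat resistant libraries. Of these 10 candidates 8 were 3p, and none passed the filter of the group test. Of the 10, 8 had a mean raw count of 5 to 10, which makes 16% of the 50 candidates at that level. At the same level 5 of 61 cattle names (8.20%) and 6 of 66 names of other species (9.09%) were found in fewer than 6 libraries.

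**Figure D5:**
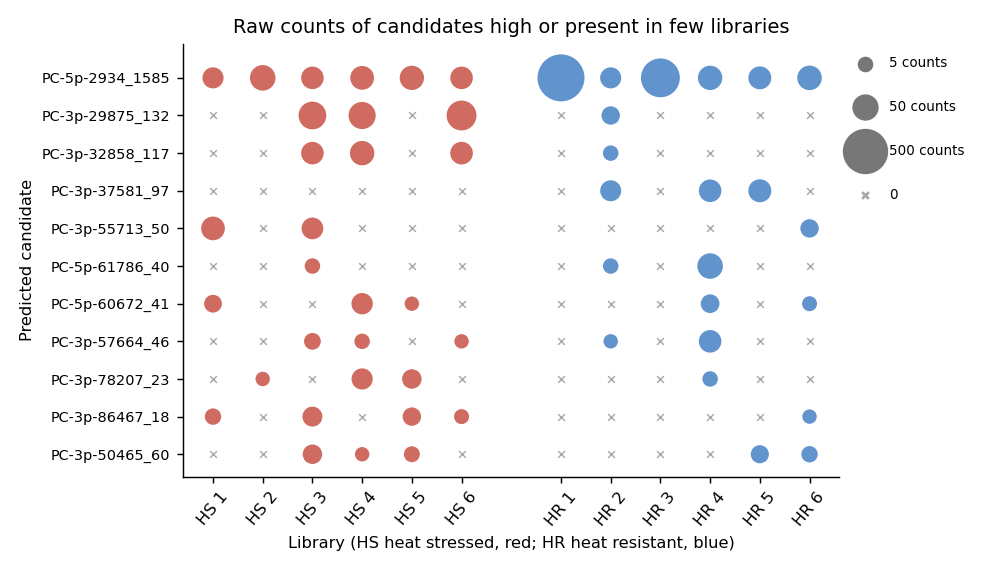
Raw counts of PC-5p-2934_1585 and of the 10 candidates found in 5 or fewer libraries, with heat stressed libraries (HS, red) left of heat resistant libraries (HR, blue); the area of a circle is proportional to the square root of the count, on the scale shown, and a cross marks 0. PC-3p-29875_132 and PC-3p-32858_117 have circles in the same 4 libraries, PC-3p-37581_97 in 3 heat resistant libraries only, and PC-5p-2934_1585 has its 2 large circles in heat resistant libraries 1 and 3.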

How the data were processed

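Sequencing of small RNA gave 12 blood libraries, grouped as labelled. Trizol was used for total RNA and a TruSeq kit for the small RNA libraries, per the labels' protocols, and ACGT101-miR removed adapter dimers, junk, common RNA families and repeats. The protocol text speaks of 9 libraries, while 12 are listed and were used. The sources used here name no aligner, genome build or prediction settings.

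The authors deposited raw values per miRNA name that are not all whole, here called expected counts and rounded; per the file headers they are unnormalized. The deposited normalized columns (a signal) equal the raw values times a constant of the library, from 0.692 to 1.70, and entered no test. The table has 2183 rows, of which 202 repeat a name and its values and were left out. Of the candidates, 14 stood on more than 1 row.

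All names entered a robust, 2-sided quasi-likelihood F test of edgeR 4.0.16 under R 4.3.3, after TMM scaling and filterByExpr at its default (minimum count 10), with Benjamini-Hochberg adjustment over 756 features at 0.05. The SE was obtained as the fold change (log2) over the square root of F. The test was run on simulated counts beforehand. DESeq2 1.42.0 (on the same features), limma 3.58.1 (voom), other filters, summed repeat rows, a red cell covariate, a replicate block and leaving out each library were alternatives.

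Named candidates are the 12 most abundant, the 6 with the smallest p in each direction and 3 on each side of the mean of 5; others are marked in the text as chosen by their values. Planned names by shared sequence or seed were not made, as sequences were not used here, and the pair under 1 number is named for its 2 arms. The members, lists and tests were chosen with earlier results of these data known. The sums of all 7 marker lists overlapped between the groups. The platelet list held 5.42% to 6.94% of counts in heat stressed and 4.75% to 7.12% in heat resistant libraries, and the myeloid list 3.32% to 4.02% in heat stressed and 3.43% to 5.72% in heat resistant libraries. The muscle list held 0.0333% to 0.106% in heat stressed and 0.0263% to 0.104% in heat resistant libraries, and the epithelial list 0.671% to 0.943% in heat stressed and 0.542% to 1.20% in heat resistant libraries. Intervals were not computed, and the depth of 3992952 to 9813801 counts limits what can be seen of candidates near 1 CPM.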

Additional observations from a re-analysis of the deposited data

Results flagged for a closer look

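Of 44 groups of 6 values screened (the named candidates in each group of cows, with the shares and numbers detected), 3 held a library far from the other 5 by Dixon's criterion. The criterion flags about 1 in 20 groups by chance only where values are independent and normally distributed. The groups screened share the same libraries, and some hold scarce candidates with few counts. Whether 3 of 44 is more than chance gives therefore cannot be told.

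PC-3p-9897_366 stood at 22.7 CPM in heat resistant library 4, while the other 5 heat resistant libraries lay between 9.93 and 14.1 CPM. The red cell list was also highest in that library, and its part in this value was not tested. PC-3p-64169_37, at the threshold mean of 5 counts, stood at 3.02 CPM in heat stressed library 3, while the other 5 lay between 0 and 0.354 CPM. PC-3p-86467_18 stood at 0.846 CPM in heat resistant library 6 and was at 0 in the other 5 heat resistant libraries.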

How the results depend on the processing

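With edgeR 0 candidates and 0 of 756 features passed (13 candidates higher and 6 lower at an unadjusted p under 0.05). Candidates called were 5 with DESeq2, 1 with repeat rows summed and 0 to 10 when leaving out 1 library at a time, of which the 10 came without heat resistant library 4, while leaving out heat stressed library 2 gave 1. Features called were 54 with DESeq2, 11 with no filter, 16 at a mean raw count of at least 5, 13 with repeat rows summed and 0 to 97 when leaving out 1 library. With the replicate block there were 8 features and 0 candidates, and PC-5p-2934_1585 was at -1.23. The labels do not say that the numbers pair cows, so the numbers were not treated as pairs. Correlations of deviations between same-numbered libraries ran from -0.056 to 0.387, with 3 of 6 over 0.1. Of the heat stressed libraries, 3 of 6 correlated best with their own number, and these values do not settle whether the numbers pair cows. DESeq2's size factors in edgeR, limma-voom and the red cell covariate gave 0 calls. The sign turned for PC-3p-1570_4189, at 0.067 without heat stressed library 2 and 0.017 without heat resistant library 4, and for PC-5p-990_8136, at -0.016 without heat resistant library 4. Over all single libraries left out, the first ran from -0.17 to 0.067 and the second from -0.016 to 0.29. All reversed values lie within their SE of 0, and the cause was not tested. Among the other values of named candidates under the alternatives, 321 kept their side of the threshold and their sign, and 16 crossed to an adjusted p under 0.05. Candidates were mostly positive under every setting tried.

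With a minimum mean of 10 there were 81 candidates, with counts in 77.7 of them per heat stressed and 74.5 per heat resistant library; with all 719 names the averages were 214.5 per heat stressed and 186 per heat resistant library. Candidates took 0.180% of heat stressed and 0.168% of heat resistant counts with the 3 most abundant features left out of the totals, and 0.107% of heat stressed and 0.108% of heat resistant counts without the most abundant candidate. The share of 5p names was 46.9%, 43.4% and 45.3% with a minimum of 10, with all names and with repeat rows summed. The alternative on distinct sequences was not run, since sequences were not used here. At 5 counts a value is 0.509 to 1.25 CPM when scaled by library totals without the TMM adjustment. Differences among scarce candidates were therefore not detectable below about that level.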
